A study of Rattus norvegicus with 23 samples.

Results

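The 4 immediate early genes of the AP-1 transcription factor examined here were Fos, Fosb, Jun and Junb. They were chosen by Ensembl identifier and accepted only where the chromosome listed for that identifier was the given one, which held for all 4. They are 4 of 32552 genes listed in the counts, and all 4 were among the 16275 genes left by the filter on low counts. RNA came from whole dorsal striatum of 23 adult male wild-type Long Evans rats, with 1 library per rat, taken 24 h after the last test of drug seeking.

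The control (CT, 6 rats) animals self-administered saline and received no footshocks. All rats of the 3 methamphetamine (METH) groups self-administered METH at 0.1 mg/kg per infusion for 22 days by the labels, and then for 8 days risked footshocks of 0.18 to 0.36 mA on part of their rewarded lever presses. They were kept abstinent for 15 days, self-administered METH again for 12 days, and met footshocks of 0.30 mA on 3 days. A second withdrawal followed, with seeking tests on its days 1 and 15, and the tissue was taken after the latter. ASR rats (METH Shock Resistant, 6 rats) kept taking METH despite shocks in both phases. DSR rats (Resurgence METH Shock Resistant, 5 rats) cut their intake in the first phase but not in the second, and AS rats (METH Shock Sensitive, 6 rats) cut it in both. The METH groups were thus sorted by behavior rather than assigned. The CT rats differ from them in drug and in shock, and these cannot be told apart.

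AP-1 is a dimer of leucine zipper proteins in which a Fos protein pairs with a Jun protein, or Jun proteins pair with each other, to bind a short palindromic DNA element. Its genes are transcribed within minutes of neuronal firing or dopamine receptor stimulation, and most of their mRNAs are short-lived. In the striatum, repeated drug exposure is known for the build-up of ΔFosB, a truncated and stable splice product of Fosb. Gene-level counts join both Fosb splice products and cannot separate ΔFosB from full-length FosB.

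In Rnor6.0, the build of the counts, Fos (ENSRNOG00000008015) lies on the plus strand at chr6:109300433-109303299 and has 4 separate exon blocks with 1589 exonic bases. Fosb (ENSRNOG00000046667) lies on the minus strand at chr1:80214494-80221710, with 4 blocks and 3741 exonic bases. Jun (ENSRNOG00000026293), at chr5:114011189-114014277, and Junb (ENSRNOG00000042838), at chr19:26092974-26094756, are on the minus strand. Each is a single exon block, of 3089 and 1783 bases. No other listed gene overlapped the span of any member (0 for each of the 4). The map of exon blocks shows the difference between the spliced Fos family genes and the intronless Jun family genes.

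**Figure D1:**
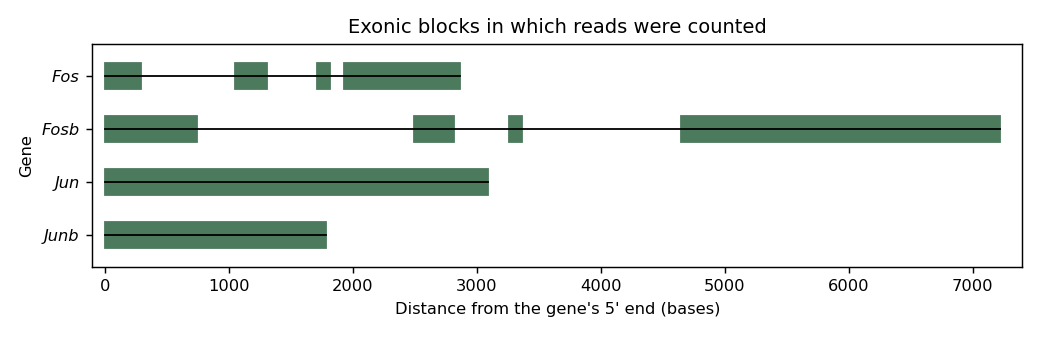
Exon blocks of Fos, Fosb, Jun and Junb as listed in the counts, with distance from the start of the gene in bases on the x axis and 1 row per gene, drawn to scale. Boxes are exon blocks and lines are introns; Fos and Fosb have 4 blocks each, Jun and Junb 1 each.

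The RefSeq promoter table for GRCr8, a later build than that of the counts, was matched by symbol. It gave the promoters of Fosb and Junb and held none for Fos and Jun. The 250 bases before each annotated start are shown for Fosb and Junb, and capitals mark matches to the motifs searched. The Fosb sequence is on the minus strand at chr1:88089185-88089434 and the Junb sequence on the plus strand at chr19:40080876-40081125.
Fosb: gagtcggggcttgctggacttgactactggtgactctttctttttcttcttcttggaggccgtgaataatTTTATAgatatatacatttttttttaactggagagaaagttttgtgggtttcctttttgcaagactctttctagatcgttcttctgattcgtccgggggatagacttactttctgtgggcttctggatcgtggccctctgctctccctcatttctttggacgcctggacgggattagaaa
Junb: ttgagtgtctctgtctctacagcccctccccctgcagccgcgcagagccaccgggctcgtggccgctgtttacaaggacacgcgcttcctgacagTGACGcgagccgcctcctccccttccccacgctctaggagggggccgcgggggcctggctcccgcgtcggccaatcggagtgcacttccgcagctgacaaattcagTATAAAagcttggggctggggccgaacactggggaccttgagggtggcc
Searched on both strands were the cAMP response element TGACGTCA, its core TGACG, which lies within it, the AP-1 element TGANTCA, the CArG box of serum response factor, and the TATA motif TATAAA. The Junb window held TGACG at -155 to -151 from the start and TATAAA at -49 to -44. The Fosb window held TATAAA on the other strand at -180 to -175, which reads TTTATA above. Of 33469 promoters in the table, 21.2% held TGACG and 14.2% TATAAA, against 1.83% for TGACGTCA, 7.33% for TGANTCA and 1.64% for the CArG box. These last motifs were not found in either window. The Junb sequence had a GC content of 66.0% and the Fosb sequence 43.6%.

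Library totals were 18967015 to 28137676 counts, and every DSR library held more counts than every AS library. Mitochondrial genes took 11.65% to 15.9% of the counts in 22 libraries and 19.58% in AS replicate 2. Chi-square per gene between rats of a group was 6.26 to 80 over 55 pairs, so no library repeated another of its group. Pairs across groups were not compared in this way. The counts were scaled with TMM factors to CPM, the usual unit of counts relative to library size. Levels between genes were compared per kilobase of exon. On that scale, mean levels over the 23 rats were 33.1 CPM per kilobase for Junb, 20.1 for Jun, 8.29 for Fos and 3.81 for Fosb. This order held in 22 rats, and in the remaining rat Jun exceeded Junb. Symbols of other genes are not paired with the identifiers, so the tissue label and markers of other cell types were not analysed here.

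All 4 members had lower mean CPM in each METH group than in CT rats, and Junb differed most regularly: all 17 METH rats were below the CT median for Junb. Relative to CT, the largest mean difference was that of Fos in ASR rats, with 9.63 CPM against 17.1. Fosb in ASR rats differed least from CT, with 14.7 against 15.5. None of these differences passed Benjamini-Hochberg adjustment over the 16275 genes in edgeR's quasi-likelihood test, and the ranges of all groups overlapped for every member. In bulk tissue, fewer cells of a type and less RNA per cell cannot be told apart.

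**Figure D2:**
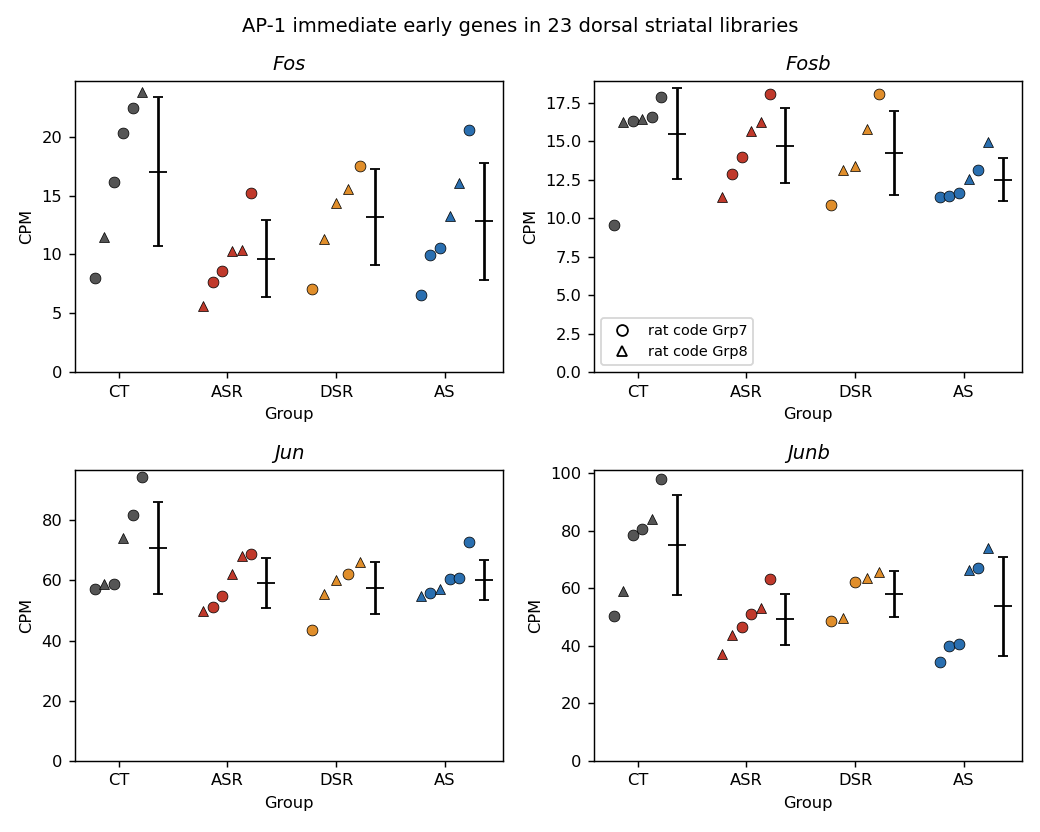
TMM-scaled CPM (y axis, from 0, a separate scale for each gene) of Fos, Fosb, Jun and Junb in each of 23 rats by group (x axis). Each point is 1 rat, circles with the number 7 and triangles with the number 8 in the rat code, and bars are mean ± SD; all 17 METH rats lie below the CT median of 79.6 CPM for Junb, and all groups overlap.

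Fos encodes c-Fos, the partner of Jun proteins whose mRNA is a common marker of recent neuronal activity. In CT rats its lowest, median and highest levels were 7.97, 18.3 and 23.8 CPM. They were 5.64, 9.43 and 15.2 CPM in ASR rats and 6.58, 11.9 and 20.6 CPM in AS rats. The 5 DSR rats, in replicate order, had 7.06, 17.5, 15.5, 11.3 and 14.4 CPM. The lowest CT rat thus lay inside the range of every METH group, while 16 of 17 METH rats were below the CT median and 4 were below the lowest CT rat. Group means were 17.1 ± 6.34 (SD, n = 6) in CT, 9.63 ± 3.27 (SD, n = 6) in ASR, 13.2 ± 4.09 (SD, n = 5) in DSR and 12.8 ± 4.97 (SD, n = 6) in AS rats. The counts behind these levels were 136 to 517 reads per library. Fos had the widest spread of the 4 members within groups: its SD on the log2 scale, 0.55, exceeded that of 89.8% of genes tested.

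Fosb encodes FosB and ΔFosB. Its lowest, median and highest levels were 9.58, 16.4 and 17.9 CPM in CT rats, 11.4, 14.8 and 18.1 CPM in ASR rats, and 11.4, 12.1 and 15.0 CPM in AS rats. The DSR rats had 10.9, 18.1, 15.8, 13.1 and 13.4 CPM. In CT rats 1 library (replicate 3) stood apart from the other 5, which lay between 16.2 and 17.9 CPM, and it was the lowest of all 23 rats. Means were 15.5 ± 2.97 (SD, n = 6) in CT, 14.7 ± 2.43 (SD, n = 6) in ASR, 14.2 ± 2.76 (SD, n = 5) in DSR and 12.5 ± 1.38 (SD, n = 6) in AS rats. The counts were 220 to 464 reads per library. Of the METH rats, 15 of 17 were below the CT median, 0 were below the lowest CT rat and 2 were above the highest.

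Jun encodes c-Jun, which also forms dimers with itself and is activated by the stress kinase JNK. Its lowest, median and highest levels were 57.2, 66.4 and 94.3 CPM in CT rats, 50.0, 58.5 and 68.6 CPM in ASR rats, and 54.7, 58.7 and 72.8 CPM in AS rats. The DSR rats had 43.5, 62.1, 66.1, 55.6 and 60.3 CPM. Below the CT median were 14 of 17 METH rats, and 8 were below the lowest CT rat, among them 3 ASR, 2 DSR and 3 AS rats. Means were 70.8 ± 15.2 (SD, n = 6) in CT, 59.2 ± 8.36 (SD, n = 6) in ASR, 57.5 ± 8.69 (SD, n = 5) in DSR and 60.2 ± 6.59 (SD, n = 6) in AS rats. The 3 METH groups therefore differed from each other by less than any of their SDs.

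Junb encodes JunB, a Jun protein that pairs with Fos proteins and activates many AP-1 sites more weakly than c-Jun. Its lowest, median and highest levels were 50.4, 79.6 and 98.0 CPM in CT rats and 37.0, 48.9 and 63.0 CPM in ASR rats. The DSR rats had 48.8, 62.1, 63.5, 49.8 and 65.7 CPM. The AS rats had 39.8, 34.5, 40.7, 66.9, 66.5 and 74.1 CPM in replicate order, so 3 were below and 3 above a gap that ran from 40.7 to 66.5 CPM. All 17 METH rats were below the CT median, and 8 were below the lowest CT rat (3 ASR, 2 DSR and 3 AS). Of the 16275 genes tested, 68 (0.418%) had every METH rat below the CT median, and 6.76% had at least 8 METH rats below the lowest CT rat. Means were 75.1 ± 17.4 (SD, n = 6) in CT, 49.1 ± 8.89 (SD, n = 6) in ASR, 58.0 ± 8.04 (SD, n = 5) in DSR and 53.8 ± 17.3 (SD, n = 6) in AS rats.

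The comparison of ASR with CT rats asks what compulsive METH takers show against drug-free controls. Junb differed by -0.61 on the log2 scale (SE 0.18, 95% interval -0.99 to -0.23), a difference of -34.6% from the CT level. Its p was 0.00279 unadjusted and 0.949 adjusted in edgeR's quasi-likelihood test, and 0.0152 in an exact permutation test of the 6 against 6 rats. Fos differed by -0.82 (SE 0.29, interval -1.42 to -0.23), with an edgeR p of 0.00884 unadjusted and 0.949 adjusted, and an exact permutation p of 0.0325. Jun differed by -0.26 (SE 0.12), with an edgeR p of 0.047 unadjusted and 0.949 adjusted, and an exact permutation p of 0.139. For Fosb the difference was -0.08 (SE 0.14, interval -0.36 to 0.21, adjusted p = 0.963, exact permutation p = 0.703), so the interval holds no decrease as large as the estimate for Junb or Fos. In all, 3 of 4 members had an unadjusted p under 0.05 in edgeR, each lower in ASR, beside 4.92% of all genes tested and 2.64% in that direction. After adjustment the count was 0 of 4, beside 0% of all genes. With DESeq2 it was also 0 of 4, beside 0 genes called in the fit of all groups and 15 in that of 2 groups. The members' median log2 fold change was -0.44 and that of all genes 0.0044. Fos and Junb stayed under the unadjusted 0.05 without each of the 23 rats in turn, and Jun crossed it without any 1 of 8 rats. Those were AS replicates 2 and 4, ASR replicates 1, 3 and 5, and CT replicates 2, 4 and 6. With the share of mitochondrial counts as a covariate Jun differed by -0.21 and 2 of 4 members were under it.

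The comparison of DSR with CT rats concerns rats whose compulsive intake came late. It used the same 6 CT libraries, so its values are not independent of those for ASR. Jun differed by -0.30 (SE 0.13, interval -0.57 to -0.03), with an edgeR p of 0.03 unadjusted and 0.982 adjusted, and an exact permutation p of 0.121. Junb differed by -0.37 (SE 0.19, interval -0.77 to 0.02, adjusted p = 0.982, exact permutation p = 0.0996). For Fos the difference was also -0.37, with a wider interval of -0.99 to 0.25 (adjusted p = 0.982, exact permutation p = 0.346). Fosb differed by -0.12 (SE 0.15, interval -0.42 to 0.18, adjusted p = 0.982, exact permutation p = 0.524). Under an unadjusted 0.05 in edgeR stood 1 of 4 members, beside 4.63% of all genes and 1.87% lower in DSR. After adjustment it was 0 of 4, beside 0%. With DESeq2 it was 0 of 4, beside 0 genes called in the fit of all groups and 1 in that of 2 groups. Without CT replicate 2, CT replicate 4 or DSR replicate 1 no member was under the unadjusted 0.05, and without CT replicate 2 Jun differed by -0.21. With the mitochondrial share as a covariate Jun differed by -0.24 and 0 of 4 members were under it. Junb was also under it without any 1 of AS replicates 2 and 6 and CT replicates 3 and 5.

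The comparison of AS with CT rats concerns rats that cut their METH intake under shock in both phases, again with the same CT libraries. Junb differed by -0.48 (SE 0.18, interval -0.86 to -0.10), with an edgeR p of 0.0147 unadjusted and 0.143 adjusted, and an exact permutation p of 0.0649. Fosb differed by -0.31 (SE 0.14, interval -0.60 to -0.02), with an edgeR p of 0.0367 unadjusted and 0.205 adjusted, and an exact permutation p of 0.0736. Fos differed by -0.41 (SE 0.29, interval -0.996 to 0.18, adjusted p = 0.405, exact permutation p = 0.268). Jun differed by -0.23 (SE 0.12, interval -0.49 to 0.02, adjusted p = 0.274, exact permutation p = 0.141). Under an unadjusted 0.05 in edgeR stood 2 of 4 members, beside 21.4% of all genes tested and 11.8% lower in AS. After adjustment it was 0 of 4, beside 0%. With DESeq2 it was 0 of 4 as well, beside 884 genes called in the fit of all groups and 923 in that of 2 groups. In this comparison 10.2% of all genes had a smaller p than Junb, against 0.209% in ASR vs CT. Junb stayed under the unadjusted 0.05 without each of the 23 rats. Fosb stayed under it except without AS replicates 2, 3 and 4 or CT replicates 1, 2 and 4, each left out by itself. AS replicate 2 was the library with the largest mitochondrial share and the lowest Fos and Junb of its group. Without that library Junb differed by -0.39 and Fosb by -0.29. With the mitochondrial share as a covariate Fosb differed by -0.28 and only Junb (-0.44) was under it, so 1 of 4 members.

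**Figure D3:**
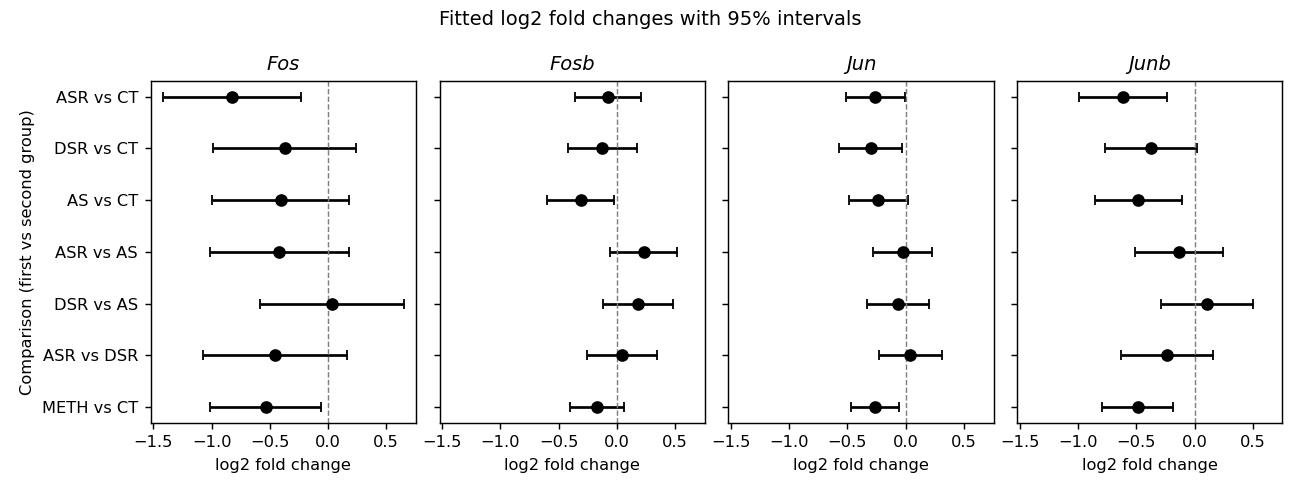
Log2 fold change (x axis) of Fos, Fosb, Jun and Junb in each comparison, with points as edgeR estimates and lines as 95% intervals. The intervals for Fos, Jun and Junb in ASR vs CT and in METH vs CT lie below 0. So do those for Jun in DSR vs CT and for Fosb and Junb in AS vs CT. Every interval between METH groups crosses 0, and no interval is adjusted for the number of genes tested.

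With the 3 METH groups weighted equally against CT, Junb differed by -0.49 (SE 0.15, interval -0.79 to -0.19, adjusted p = 0.49). Jun differed by -0.26 (SE 0.10, interval -0.47 to -0.06, adjusted p = 0.52) and Fos by -0.53 (SE 0.23, interval -1.01 to -0.06, adjusted p = 0.523). Fosb differed by -0.17 (SE 0.11, interval -0.40 to 0.06, adjusted p = 0.649). So 3 of 4 members were under an unadjusted 0.05 in edgeR, beside 8.82% of all genes and 5.14% lower in METH rats. After adjustment it was 0 of 4, beside 0%, and with DESeq2 0 of 4, beside 1 gene called. The members' median was -0.38 and that of all genes 0.0070. Junb had a smaller p than all but 0.528% of genes. Without CT replicate 2, 4 or 6 in turn, fewer members were under the unadjusted 0.05, down to 1, and without CT replicate 3 all 4 were. Without CT replicate 2, Fos differed by -0.45, Jun by -0.18 and Junb by -0.41. With the mitochondrial share as a covariate Junb alone stayed under it, with a difference of -0.44 beside -0.43 for Fos and -0.21 for Jun. Some METH rats had a larger share than any CT rat, so that fit cannot fully separate the share from METH. In the edgeR test of any difference among the 4 groups, Junb had F = 4.32 (adjusted p = 0.259) and was under an unadjusted 0.05, as no other member was (1 of 4, beside 15.6% of all genes and 0% after adjustment). Without CT replicate 2 Junb was not under it, and Fos with no filter on low counts was. Fos was also under it without AS replicate 2 or 4, ASR replicate 2, CT replicate 3 or 5, or DSR replicate 1. So was Jun without AS replicate 1 or CT replicate 1, 3 or 5, and Fosb without CT replicate 3.

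The comparisons among METH groups ask whether the AP-1 genes separate rats by their response to shock. In the edgeR fit of all groups, no member had an unadjusted p under 0.05 in these comparisons. The count was 0 of 4 in ASR vs AS (beside 8.65% of all genes), DSR vs AS (beside 25.3%) and ASR vs DSR (beside 4.29%). None had an adjusted p under 0.05 (0% of all genes in each). For Junb the differences were -0.13 for ASR against AS (interval -0.51 to 0.25), 0.11 for DSR against AS (-0.29 to 0.50) and -0.24 for ASR against DSR (-0.63 to 0.16). For Fos they were -0.42 (interval -1.01 to 0.18), 0.03 (-0.58 to 0.65) and -0.45 (-1.07 to 0.17) in the same order. For Fos the intervals with ASR reach beyond its difference of -0.82 between ASR and CT. Jun was held more tightly, with -0.03 (interval -0.28 to 0.23), -0.07 (-0.34 to 0.20) and 0.04 (-0.23 to 0.31) in that order. Fosb had 0.23 in ASR vs AS (interval -0.06 to 0.52, exact permutation p = 0.0844), 0.19 between DSR and AS (-0.12 to 0.49) and 0.05 between ASR and DSR (-0.25 to 0.35). Without CT replicate 3, AS replicate 5 or ASR replicate 6, Fosb was under an unadjusted 0.05 in ASR vs AS, as was Fos in ASR vs DSR without ASR replicate 2.

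The rat codes carry the number 7 or 8, which no source explains. It is treated here as a cohort, with 4 CT, 3 ASR, 2 DSR and 4 AS rats in cohort 7 and 2, 3, 3 and 2 in cohort 8. Within each cohort all 4 members had lower fitted levels in all 3 METH groups than in CT, by as little as -0.01 for Fosb in ASR vs CT in cohort 7. The 3 METH groups share the CT rats of their cohort, and the share of all genes lower in this way was not computed. In METH vs CT, 2 of 4 members were under an unadjusted 0.05 in edgeR in cohort 7 alone and 0 in cohort 8 alone. Junb in ASR vs CT differed by -0.52 in cohort 7 and -0.68 in cohort 8, and Fos by -0.68 and -1.01. Junb in AS vs CT differed by -0.76 in cohort 7 (adjusted p = 0.399) but by -0.03 in cohort 8. The mean Junb level in AS rats was 45.5 CPM in cohort 7 and 70.3 in cohort 8, beside 76.9 and 71.5 in CT rats. The edgeR test of the difference between cohorts gave 0.73 (SE 0.36, unadjusted p = 0.0544, adjusted p = 1), with only 2 AS and 2 CT rats in cohort 8. With cohort as a covariate, Junb differed by -0.62 in ASR vs CT and by -0.49 in AS vs CT, both under an unadjusted 0.05. With that covariate Jun in ASR vs CT differed by -0.26 and was no longer under it, which left 2 of 4 members. In cohort 8 alone, Junb differed by -0.64 between ASR and AS and by -0.42 between ASR and DSR, and Fos by -0.74 between ASR and AS, each under an unadjusted 0.05 (adjusted p = 0.37, 1 and 0.651). In cohort 7 alone these were 0.24, -0.05 and -0.19, and these differences between cohorts were not tested.

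Levels of the 4 members were positively correlated from rat to rat, most closely for Fos and Junb. Across the 23 rats, log2 CPM of Fos and Junb had Pearson's r = 0.88 and Spearman's rho = 0.89, both with a permutation p of 1e-05, the smallest that 100000 permutations can give (6e-05 adjusted over 6 pairs). After group means were subtracted r was 0.88, in cohort 7 it was 0.86 and in cohort 8 0.94, and without the 2 rats farthest from the median Fos level it was 0.85. Of 16274 other genes, 2 had a higher r with Fos than Junb had, and 2 had a higher r with Junb than Fos had. For the other pairs this number ran from 24 (Fosb, by r with Fos) to 786 (Junb, by r with Jun). By r with Jun, 123 genes also ranked above Fos and 460 above Fosb. Fos and Fosb had r = 0.63 (rho 0.64 with permutation p = 0.00133, r with p = 0.0015, adjusted 0.0033) and 0.58 without the 2 farthest rats. Fos and Jun had r = 0.61 (permutation p = 0.00165, adjusted 0.0033, rho 0.56 with p = 0.00588) and 0.65 without them. Fosb and Junb had r = 0.59 (permutation p = 0.00399, adjusted 0.00598, rho 0.56 with p = 0.00664) and 0.62 without them, and Fosb and Jun r = 0.50 (permutation p = 0.0146, adjusted 0.0175, rho 0.47 with p = 0.025) and again 0.50. For Jun and Junb r was 0.44 (permutation p = 0.0332, adjusted 0.0332), but rho was 0.30 (p = 0.167) r without the 2 rats farthest from the median of Jun was 0.25 (p = 0.269), and r with group means subtracted was 0.29 (p = 0.178). That relation therefore did not hold without those rats, nor within groups. Beyond Fos and Junb, the pairs had r of 0.57 to 0.73 in the 13 rats of cohort 7 and of 0.14 to 0.47 in the 10 rats of cohort 8, where no permutation p was below 0.175. All these values share the library and its scaling.

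**Figure D4:**
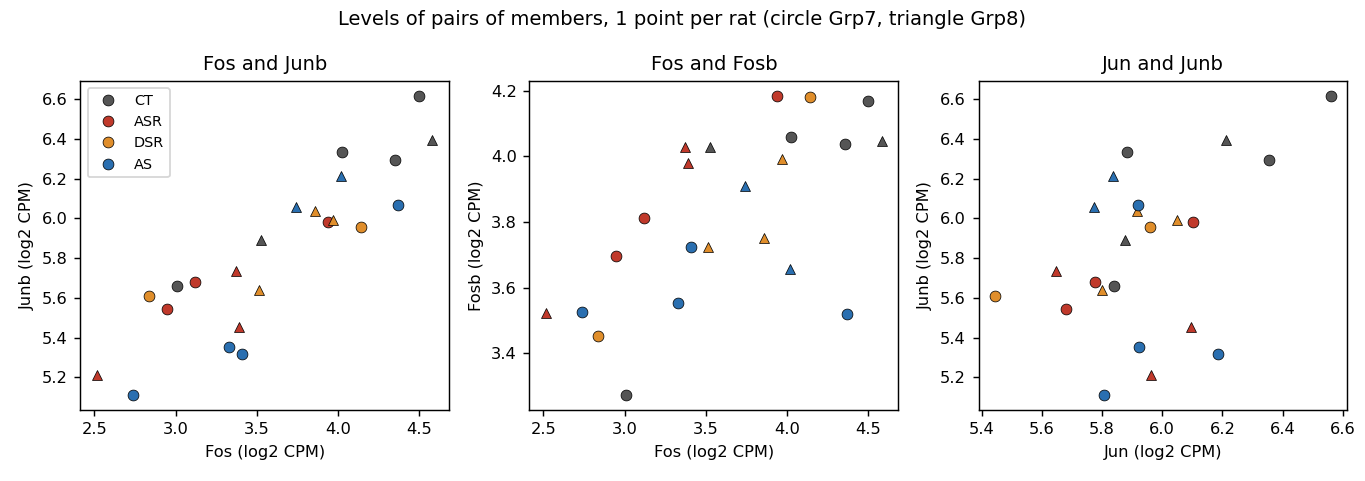
Log2 CPM of Fos and Junb, of Fos and Fosb, and of Jun and Junb, 1 pair per panel. Each point is a rat, colored by group and shaped by the number in its code. Of all 6 pairs of members over the 23 rats, Fos and Junb follow each other most closely (Pearson's r = 0.88), Jun and Junb least (r = 0.44).

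By mean r with the 4 members over the 23 rats, the gene most like them was ENSRNOG00000003977 (chr10:16970626-16973418), with a mean r of 0.78. Its r was 0.92 with Fos, 0.92 with Junb, 0.68 with Fosb and 0.61 with Jun. Its level was 39.8 ± 9.73 CPM (SD, n = 6) in CT, 26.9 ± 4.79 (SD, n = 6) in ASR, 29.6 ± 7.06 (SD, n = 5) in DSR and 28.3 ± 6.95 (SD, n = 6) in AS rats. The next was ENSRNOG00000007607 (chr7:142905758-142920216), with a mean r of 0.76, and 0.89 with Fos and 0.91 with Junb. It had 86.0 ± 27.0 CPM (SD, n = 6) in CT, 52.4 ± 17.4 (SD, n = 6) in ASR, 63.1 ± 20.1 (SD, n = 5) in DSR and 56.0 ± 14.9 (SD, n = 6) in AS rats. These genes were picked for likeness over the same rats, so their order of groups is a description. Other genes with r over 0.8 numbered 3 for Fos, 7 for Junb, 6 for Jun and 0 for Fosb.

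Because Fosb differed less from CT in ASR rats than Fos and Junb did, ratios within a library were computed after these values were seen. The CPM ratio of Fosb to Junb had a geometric mean of 0.208 in CT rats (range 0.183 to 0.274) and 0.3 in ASR rats (0.273 to 0.359), so the lowest ASR rat lay just within the CT range. It was 0.244 in DSR rats (0.204 to 0.291) and 0.242 in AS rats (0.169 to 0.331). The difference between ASR and CT was 0.53 on the log2 scale, with an exact permutation p of 0.00433 and 0.117 adjusted over 36 ratio tests. For this ratio ASR differed from DSR by 0.30 (exact permutation p = 0.0216, adjusted 0.195) and from AS by 0.31 (p = 0.156, adjusted 0.401). The ratio of Fosb to Fos had geometric means of 0.957 in CT (0.69 to 1.42), 1.58 in ASR (1.19 to 2.02), 1.12 in DSR (0.928 to 1.54) and 1.03 in AS rats (0.553 to 1.74). ASR differed from CT by 0.73 (exact permutation p = 0.00649, adjusted 0.117), from DSR by 0.50 (p = 0.013, adjusted 0.156) and from AS by 0.61 (p = 0.039, adjusted 0.26). Higher means in ASR than in CT were not limited to Fosb. Jun to Fos had 6.38 in ASR and 4.37 in CT rats (exact permutation p = 0.0606, adjusted 0.26). Jun to Junb had 1.21 and 0.948 (exact permutation p = 0.0606, adjusted 0.26). No ratio passed adjustment, and the ratios reuse the counts of the comparisons above.

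**Figure D5:**
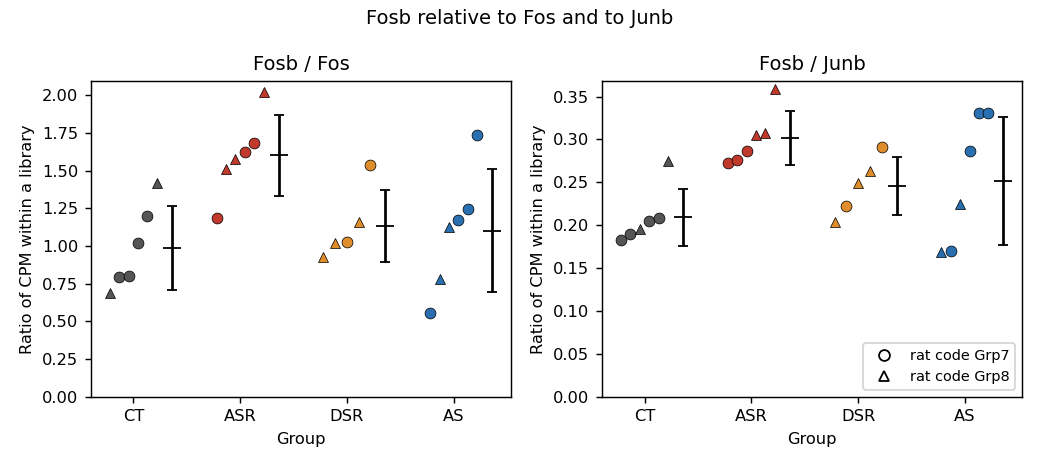
CPM ratios of Fosb to Fos and of Fosb to Junb within each library (y axis, from 0) by group, with 1 point per rat and bars for mean ± SD. ASR rats have the highest mean in both panels, with values from 1.19 to 2.02 for Fosb to Fos and from 0.273 to 0.359 for Fosb to Junb, and overlap the CT rats.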

How the data were processed

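The authors deposited raw counts per gene for dorsal striatal RNA of 6 CT, 6 ASR, 5 DSR and 6 AS rats, and these were used here. Per the labels and methods, poly(A)-enriched libraries were sequenced in pairs, reads were trimmed with Trimmomatic 0.36 and mapped to Rnor6.0 with STAR 2.5.2b, and uniquely mapped reads in exons were counted with featureCounts (Subread 1.5.2). Counting at the gene level joins splice products. Groups were taken from the sample labels, and replicate numbers only name rats. Per-sample columns left out numbered 0. Library totals of 18967015 to 28137676 counts put 136 or more reads behind every value of a member.

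Computed here in R 4.3.3 with edgeR 4.0.16 were TMM factors, CPM, and quasi-likelihood tests of 16275 genes kept by filterByExpr (minimum count 10, minimum total 15), with the 4 groups in 1 fit and Benjamini-Hochberg adjustment over all genes tested. Single values were compared by two-sided exact permutation tests, and correlations by 100000 permutations, on log2 CPM (prior count 2, scipy 1.17.1). The smallest exact p is 0.00216 for 6 against 6 rats and 0.00433 for 5 against 6. Only the edgeR test was tried on simulated data, for AS against CT and with planted changes larger than those of the members. Alternatives were RLE factors, mitochondrial genes left out of totals, no filter on low counts, DESeq2 1.42.0 on all groups and on 2 groups, edgeR on 2 groups, the cohort or the mitochondrial share as a covariate, each cohort by itself, and each of 23 rats left out in turn.

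The members and lists were chosen with earlier results of these data known. The named genes were the 4 members and the first 2 identifiers by mean r with them. The ratios and the test between cohorts were chosen after seeing the data. The lists of other AP-1 genes, activity genes, upstream genes, targets and cell type markers were not analysed here, because the identifiers are not paired with symbols.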

Additional observations from a re-analysis of the deposited data

Results flagged for a closer look

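In 2 of the 16 sets of 1 member in 1 group, a rat lay far from the others by Dixon's test, where about 0.8 of 16 would by chance. For Fosb, CT replicate 3 had 9.58 CPM, against 16.2 CPM in the next rat and 17.9 in the highest. Its gap was 0.8 of the range. This rat was also the lowest CT rat for Fos, Jun and Junb. Without it, Fosb differed by -0.42 in AS vs CT (edgeR adjusted p = 0.137) and by -0.28 in METH vs CT (adjusted p = 0.72). In ASR vs CT Fosb then differed by -0.18 (edgeR adjusted p = 0.979), against -0.08 with that rat. Fos and Junb differed there by -0.97 and -0.70 without it. For Jun, AS replicate 1 had 72.8 CPM, against 60.6 in the next rat and 54.7 in the lowest, with a gap of 0.67 of the range. Without it, Jun differed by -0.31 in AS vs CT (adjusted p = 0.118) and by 0.05 in ASR vs AS.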

How the results depend on the processing

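No member had an adjusted p under 0.05 in the edgeR fit of all groups or in any of 916 values under the alternatives. The lowest was 0.084, for Junb for AS against CT with DESeq2 on all groups, beside 0.104 for Junb for ASR against CT with DESeq2 on 2 groups. With no rat left out, 266 member differences kept their direction and side of that threshold and 6 turned. In cohort 8 alone the log2 differences that turned were -0.083 for Fos, 0.13 for Jun and -0.23 for Junb for DSR against AS, 0.12 for Jun for ASR against AS and -0.011 for Jun for ASR against DSR. In cohort 7 alone it was 0.24 for Junb for ASR against AS. With a rat left out, 629 kept direction and 15 turned, all between METH groups. The ranges were -0.092 to 0.221 for Fos for DSR against AS, -0.038 to 0.151 for Fosb for ASR against DSR, -0.073 to 0.051 for Jun for ASR against AS, -0.045 to 0.096 for Jun for ASR against DSR and -0.109 to 0.031 for Jun for DSR against AS.

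Over all genes, the adjusted count was 0 in every comparison. DESeq2 on all groups called 884 genes for AS against CT, 726 for DSR against AS, 1 for ASR against DSR and 1 for METH against CT, and on 2 groups 923 for AS against CT, 21 for ASR against AS, 15 for ASR against CT, 1768 for DSR against AS and 1 for DSR against CT. edgeR on 2 groups called 1 for ASR against CT. Cohort 8 alone gave 86 for AS against CT, 20 for ASR against AS and 32 for DSR against AS. With a rat left out the count went from 0 to 1377 for AS against CT (without CT replicate 2) and from 0 to 1954 for DSR against AS (without DSR replicate 4). The unadjusted counts moved as well. With no filter they were 1223 for ASR against CT, 1106 for ASR against DSR and 1150 for DSR against CT. In cohort 7 they were 2004 for AS against CT, 688 for ASR against AS, 2712 for ASR against DSR, 1501 for DSR against CT and 565 for METH against CT, and in cohort 8 they were 1743 for AS against CT, 506 for ASR against CT, 239 for ASR against DSR, 1345 for DSR against AS and 445 for DSR against CT. With a rat left out they ranged from 357 to 1859 for ASR against DSR, 939 to 2213 for ASR against AS, 560 to 1276 for ASR against CT, 609 to 1208 for DSR against CT, 2382 to 5265 for DSR against AS, 1087 to 2284 for METH against CT and 2434 to 4786 for AS against CT. The cause was not tested.

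In cohort 8, permutation p missed 0.05 for r of 0.47 (Fos and Fosb), 0.33 (Fos and Jun), 0.19 (Fosb and Jun), 0.37 (Fosb and Junb) and 0.14 (Jun and Junb). So did Jun and Junb by rho (0.30), with group means subtracted (0.29) and without the 2 farthest rats (0.25). No paired analysis was possible because no rat code is shared between groups.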

Other observations

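The levels of the members were set beside library total and mitochondrial share over the 23 rats. In these 8 relations the strongest was that of Jun with the mitochondrial share, with r = -0.43 (permutation p = 0.0473, adjusted 0.327), rho = -0.48 (p = 0.0217) and r = -0.52 without the 2 farthest rats. It was -0.50 in the 13 rats of cohort 7 and -0.23 in the 10 rats of cohort 8. For Fos, r with the mitochondrial share was -0.35 (permutation p = 0.104, rho -0.23 with p = 0.293), and -0.06 without the 2 farthest rats. For Junb it was -0.33 (permutation p = 0.131, rho -0.08 with p = 0.728), and 0.01 without those rats. Both relations for Fos and Junb were negative in cohort 7 (-0.58 and -0.53) and positive in cohort 8 (0.34 and 0.32). Over the 8 relations the adjusted p was 0.327 to 0.652.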
